A study of Mus musculus with 12 samples.

Results

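A set of 9 genes of calcium entry across the cell surface was examined in the tibialis anterior, a hindlimb muscle, of WT and mdx/mTR mice. They are Stim1, Stim2, Orai1, Orai2, Orai3, Trpc1, Trpv2, Trpv4 and Piezo1, taken by gene symbol from a count table of 24421 entries. All 9 were found and all 9 passed the filter on low counts, which kept 13937 entries. The WT group holds 6 male C57Bl/6 mice and the mdx/mTR group 6 male mice of the strain labelled mdx/mTR, all at an age of 4 months. In mdx mice Dmd, which encodes dystrophin, is mutated, and the symbol mTR stands for telomerase RNA of the mouse, whose gene is listed as Terc. The labels give neither the zygosity nor the number of generations without telomerase, and no group carries 1 of the 2 alleles alone, so their contributions cannot be told apart. Each library was taken as 1 mouse, since the labels mention no pooling. They do not say how the mice were housed or bred, so the p-values measure the spread between these samples.

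When the sarcoplasmic reticulum loses calcium, the sensor proteins STIM1 and STIM2 in its membrane cluster and open ORAI channels in the surface membrane, a process called store-operated calcium entry. ORAI1 is the main pore subunit, and ORAI2 and ORAI3 can join it in mixed channels. TRPC1, TRPV2 and TRPV4 are cation channels of the transient receptor potential (TRP) family that have been linked to store depletion, stretch, swelling or heat, and PIEZO1 is a channel opened directly by membrane tension. In dystrophic muscle these routes have long been studied as sources of excess calcium. TRPV2 and PIEZO1 are also known from macrophages and from blood vessels, respectively.

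The data held 35136327 to 60330410 counts per library. Dmd checked the labels: it was 228 to 244 CPM (counts per 1000000, after scaling of the libraries) in WT and 35.2 to 56.4 CPM in mdx/mTR. For Terc the table holds only 2 counts, both from WT replicate 3, so its level could not be compared between the groups. The muscle fibre markers (8 genes, among them Acta1, Ckm and Ttn) summed to 157145 to 183010 CPM in WT against 117839 to 162895 CPM in mdx/mTR, and none of the 8 was at 0. In a whole muscle, fewer cells of a type and less RNA per cell cannot be told apart, and other cells contribute to every value below.

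Orai2 and Trpv2 rose most in mdx/mTR muscle, to 3.32 and 2.10 times the WT level, and Orai1 rose to 1.19 times. Stim2 fell to 74.1% of WT. Stim1 and Orai3 were called lower by small margins (90.4% and 90.7% of WT). Trpc1, Trpv4 and Piezo1 did not pass the test. In edgeR, 6 of the 9 genes had an adjusted p below 0.05 (3 higher, 3 lower), where 48.3% of all genes tested did (25.0% higher, 23.4% lower). The median log2 fold change was 0.13 over the 9 genes and 0.01 over all genes tested. Groups did not overlap for 3 of the 9, where 25.2% of all genes tested had such a gap (12.6% higher and 12.6% lower). With 9 genes these counts are not read as a property of the group, and the account that follows rests on the single genes.

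Promoters of the 4 genes whose calls were the most secure are shown so that their sequence can be read beside their levels. Windows of 250 bases before the start of each gene in RefSeq (GRCm38.p6) were searched on both strands for 8 motifs: the E-box CACGTG, the cAMP response element TGACGTCA, the ETS-type GAGGAAGT, the NFAT-type TGGAAA, the GC box GGGCGG, the CCAAT box, the TATA-type TATAAA and the myogenic E-box CAGCTG. The sequences are printed 5′ to 3′ on the strand of the gene, without the bases that GENCODE places inside the gene (57 for Orai2 and 24 for Stim2), and capitals mark the CACGTG, GAGGAAGT and GGGCGG matches.

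Orai2, chr5:136170714-136170906, minus strand:
Orai2: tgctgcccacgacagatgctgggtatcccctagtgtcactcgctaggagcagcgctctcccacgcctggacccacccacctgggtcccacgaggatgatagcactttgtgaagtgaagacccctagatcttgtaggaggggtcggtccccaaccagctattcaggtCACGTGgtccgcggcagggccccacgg
Trpv2, the first of 3 starts, chr11:62574236-62574485, plus strand:
Trpv2: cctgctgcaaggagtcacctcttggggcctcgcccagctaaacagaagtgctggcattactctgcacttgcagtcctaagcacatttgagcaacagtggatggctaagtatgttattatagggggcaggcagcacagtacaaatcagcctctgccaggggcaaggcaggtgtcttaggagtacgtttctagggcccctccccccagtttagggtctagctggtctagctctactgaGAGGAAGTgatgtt
Orai1, chr5:123014824-123015073, plus strand:
Orai1: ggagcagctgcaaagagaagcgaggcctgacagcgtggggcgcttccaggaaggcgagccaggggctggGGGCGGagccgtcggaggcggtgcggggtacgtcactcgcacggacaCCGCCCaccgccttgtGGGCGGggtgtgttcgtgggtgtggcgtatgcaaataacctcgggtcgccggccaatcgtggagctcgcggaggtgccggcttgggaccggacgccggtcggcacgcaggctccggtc
Stim2, chr5:53998273-53998498, plus strand:
Stim2: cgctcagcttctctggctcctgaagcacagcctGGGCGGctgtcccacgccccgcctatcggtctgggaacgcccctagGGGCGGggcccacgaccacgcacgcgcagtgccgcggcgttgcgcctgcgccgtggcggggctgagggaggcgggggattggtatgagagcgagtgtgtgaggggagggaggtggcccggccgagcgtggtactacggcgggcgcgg

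In the Orai2 window CACGTG, the E-box read by several basic helix-loop-helix factors, begins 84 bases before the start (printed) and 51 bases before it (inside the GENCODE gene, not printed). Of 32851 windows of this length, 6.02% hold this motif at least once and 0.429% hold it 2 or more times. None of the other windows of the 9 genes holds CACGTG. The first Trpv2 window has GAGGAAGT, letters of the kind read by ETS factors, 14 bases before the start, and 2.44% of all windows hold it. GGGCGG, the GC box, is in at least 1 window of every gene but Trpv2 and in 32.7% of all windows. The Orai2 site (12 bases before the start) and a Stim2 site (16 bases before it) lie inside the GENCODE genes and are not printed. The first Trpv2 window also has 2 CG dinucleotides, against 7 in Orai3, 17 in Orai2 and Trpc1, 22 in Trpv4, 26 in Piezo1, 30 in Orai1 and Stim2 and 31 in Stim1 (median of all windows 6). TGACGTCA was in no window of the 9 genes, and TGGAAA only in the third window of Trpv2 (18.6% of all windows). CCAAT was in the windows of Stim2, Orai1 and Orai3 (33.9% of all), TATAAA in that of Piezo1 (12.4%) and CAGCTG in that of Orai1 (13.0%). These matches describe the letters of the windows.

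**Figure D1:**
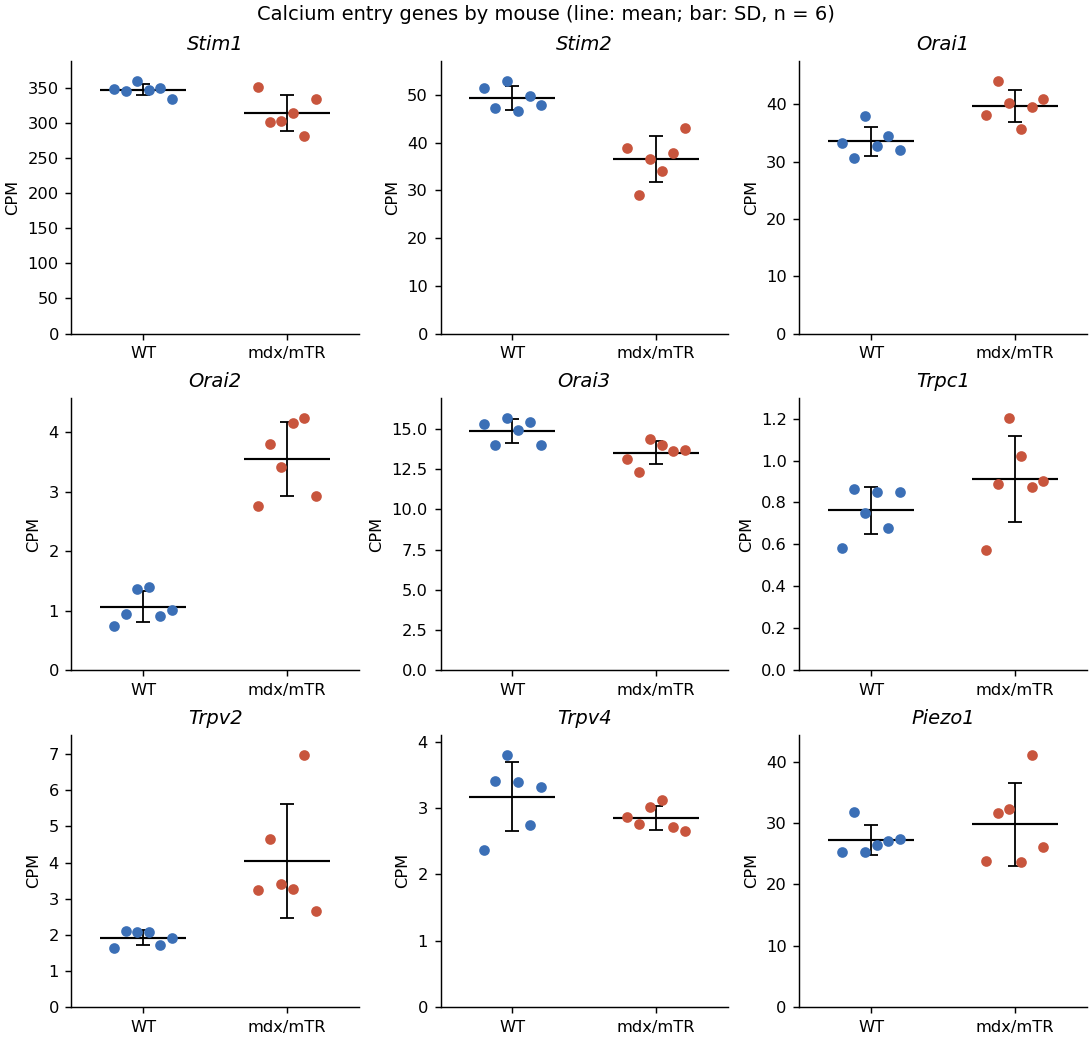
CPM of each of the 9 genes (y axis, from 0) in the 6 WT and 6 mdx/mTR mice, 1 point a mouse, with the mean as a line and the SD as a bar. Orai2, Trpv2 and Stim2 are the genes whose groups do not overlap.

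Stim1 (chr7:102267806-102437319, GRCm38 in GENCODE as for the genes below), which encodes the reticulum's calcium sensor, was the most abundant of the 9 genes. In WT it had a lowest value of 335, a median of 348 and a highest of 359 CPM. In mdx/mTR the corresponding values were 281, 308 and 351 CPM. Of the mdx/mTR mice, 5 lay below the lowest WT mouse, and mdx/mTR replicate 1 lay among the WT mice. The means were 348 ± 7.97 and 314 ± 25.3 CPM (SD, n = 6 each), a log2 fold change of -0.15 ± 0.05 (SE, edgeR quasi-likelihood test, adjusted p 0.0393). With library totals alone the log2 fold change of Stim1 was 0.00574, and the call was lost in 8 of 12 fits that left out 1 mouse (adjusted p 0.0103 to 0.0783 over the 12). Those were the fits without WT replicate 1, 3, 4 or 5 and without mdx/mTR replicate 2, 3, 4 or 5. The spread among mice was wider in mdx/mTR, with a coefficient of variation of 8.05% against 2.29%. Muscle makes a long splice form of STIM1 that gene counts do not separate.

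Stim2 (chr5:53998499-54121057) encodes the second sensor, which responds to smaller losses of stored calcium. It ran from 46.6 to 52.9 CPM in WT, with a median of 48.9, and from 28.96 to 43.1 CPM in mdx/mTR, with a median of 37.2. Every mdx/mTR mouse was below every WT mouse, and mdx/mTR replicate 2 was the lowest. Stim2 fell by 0.43 on the log2 scale (SE 0.08; adjusted p 5.3e-04 in edgeR). Its log2 fold change lay between -0.49 and -0.37 in the 12 fits without 1 mouse, and was -0.28 (adjusted p 0.00596 in edgeR) when only library totals were used.

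Orai1 (chr5:123015074-123030456) encodes the main pore of store-operated entry. In WT its lowest, median and highest values were 30.7, 33.0 and 37.9 CPM. In mdx/mTR they were 35.7, 39.9 and 44.0 CPM. All but 1 of the mdx/mTR mice, replicate 4, were above the highest WT mouse, which was WT replicate 3. Orai1 rose by 0.25 on the log2 scale (SE 0.06; adjusted p 0.00397 in edgeR), between 0.22 and 0.28 in the fits without 1 mouse. An antisense gene, Gm2479, covers 7 bases of Orai1's exons, 0.305% of them.

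Orai2 (chr5:136147459-136170713) encodes a pore subunit that is known to lower the current of mixed channels. It was scarce in WT, at 0.750 to 1.41 CPM with a median of 0.981, and reached 2.75 to 4.24 CPM in mdx/mTR, with a median of 3.61. The lowest mdx/mTR mouse was above the highest WT mouse, and mdx/mTR replicates 4 and 5 were the highest. Raw counts ran from 27 to 248 per library. The means were 1.07 ± 0.261 and 3.55 ± 0.622 CPM (SD, n = 6 each), a log2 fold change of 1.73 ± 0.17 (SE; adjusted p 5.5e-06 in edgeR). By size of log2 fold change Orai2 ranked 412 of the 13937 genes tested, higher than any other of the 9. Its value ranged from 1.65 to 1.83 over the 12 fits without 1 mouse.

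Orai3 (chr7:127769815-127775150), the third pore gene, ran from 13.98 to 15.7 CPM in WT (median 15.1) and from 12.3 to 14.4 CPM in mdx/mTR (median 13.7). The ranges overlapped, and 4 mdx/mTR mice lay below the lowest WT mouse. Its log2 fold change was -0.14 ± 0.06 (SE; adjusted p 0.0469 in edgeR), and 0.0160 with library totals alone. The call was lost in 9 of the 12 fits without 1 mouse (adjusted p 0.0323 to 0.100 over the 12). These left out WT replicate 1, 3, 4 or 5 or mdx/mTR replicate 1, 2, 4, 5 or 6.

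**Figure D2:**
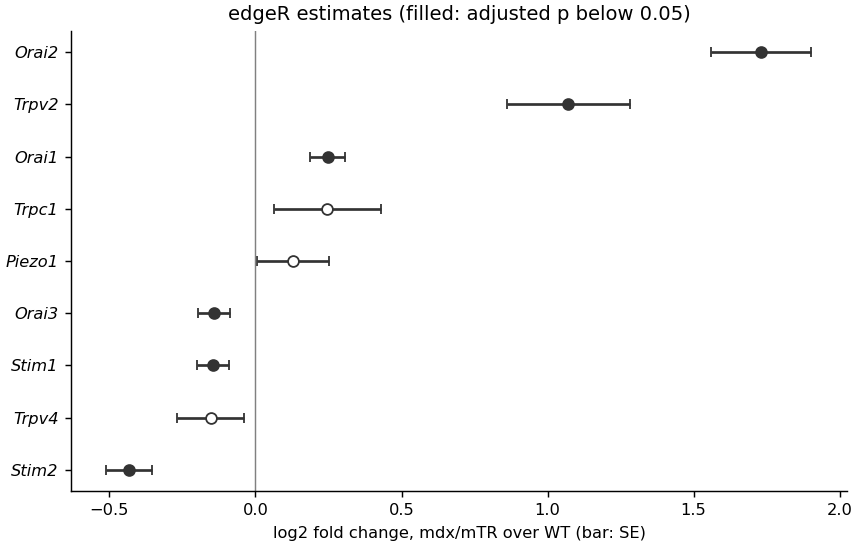
Log2 ratio of mdx/mTR to WT levels (x axis) for the 9 genes, with the SE as a bar and filled points for an adjusted p below 0.05. The values run from -0.43 for Stim2 to 1.73 for Orai2 and the open points are Trpc1, Piezo1 and Trpv4.

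Ratios within a library do not depend on how libraries are scaled to each other, so 4 were compared, each as counts per exonic base. The level of a ratio depends on the gene lengths used, while its log2 difference between the groups does not. By the longest coding transcript, Stim1 had 79.7 and Orai1 17.9 CPM per kilobase in WT. By all exons these were 33.5 and 14.6. Stim1 to Orai1, sensor to pore, was 2.30 ± 0.130 in WT against 1.76 ± 0.211 in mdx/mTR (SD, n = 6 each). Its log2 difference was -0.40 (two-sided exact permutation p 0.00216, adjusted p 0.00289 over the 4 ratios), and the lowest WT mouse (2.096) stayed above the highest mdx/mTR mouse (2.04). Orai3 to Orai1 went from 0.477 ± 0.0193 to 0.366 ± 0.0392, a log2 difference of -0.39 (exact permutation p 0.00216, adjusted p 0.00289) without overlap. Thus both genes that were called lower by small margins stood lower relative to Orai1 in every mdx/mTR mouse. Both ratios share Orai1, whose own log2 fold change was 0.25, against -0.15 for Stim1 and -0.14 for Orai3. They therefore do not show by themselves that Stim1 or Orai3 fell.

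Orai2 to Orai1 was 0.0120 ± 0.00271 in WT against 0.0339 ± 0.00689 in mdx/mTR, a log2 difference of 1.51 (exact permutation p 0.00216, adjusted p 0.00289), again without overlap. Orai2 itself rose by 1.73 on the log2 scale and Orai1 by 0.25, so this ratio is not separate support for the rise of Orai2. Of the summed Orai level per length, Orai2 made up 0.805% ± 0.182 in WT against 2.41% ± 0.445 in mdx/mTR. Orai1 made up 67.2% ± 0.861 and 71.5% ± 2.20, and Orai3 32.0% ± 0.906 and 26.1% ± 2.04. Orai1 therefore remained the main Orai transcript in every mouse (lowest share 66.3% in WT and 68.3% in mdx/mTR).

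Stim2 to Stim1 was 0.287 ± 0.0108 in WT against 0.236 ± 0.0289 in mdx/mTR, a log2 difference of -0.29 (exact permutation p 0.00433, adjusted p 0.00433). The ranges touched, since the highest mdx/mTR mouse (0.2721, replicate 5) lay just above the lowest WT mouse (0.2717, replicate 4). The smallest p this design allows is 0.00216. All 4 differences kept their sign and an adjusted p of at most 0.0130 in every test without 1 mouse and with 1 count added.

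**Figure D3:**
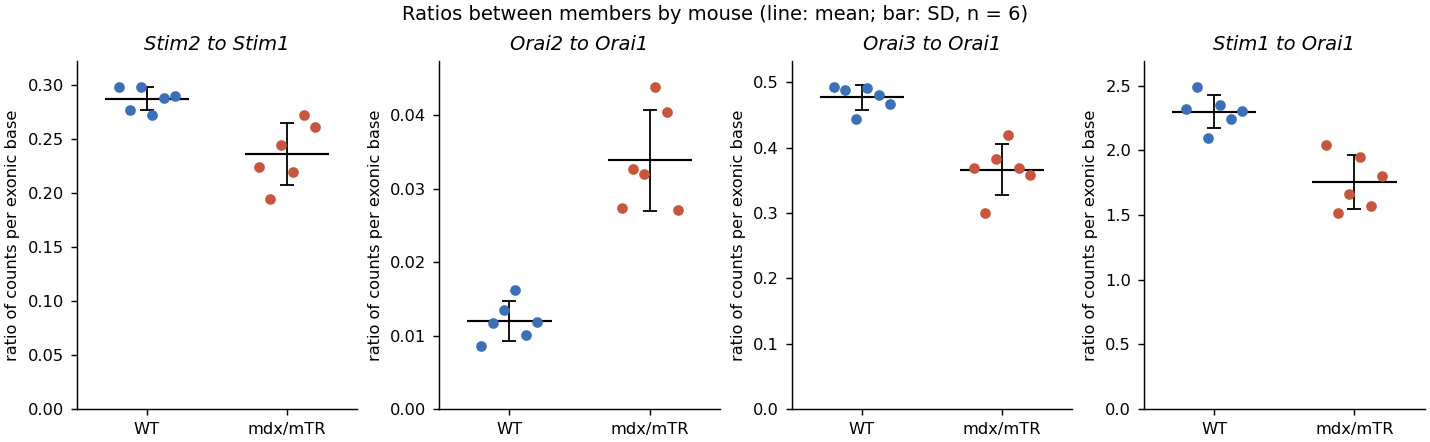
Ratio of counts per exonic base (y axis, from 0) for 4 pairs of genes, 1 point a mouse, with the mean as a line and the SD as a bar. Only the Stim2 to Stim1 panel has groups that overlap.

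Trpv2 (chr11:62574486-62600515) encodes a cation channel linked to stretch and, in macrophages, to phagocytosis. WT mice had 1.64 to 2.09 CPM (median 1.99) and mdx/mTR mice 2.67 to 6.99 CPM (median 3.34). No mdx/mTR mouse fell within the WT range, but the group was spread widely: replicate 5 had 6.99 and replicate 2 had 4.67 CPM, against 2.67 to 3.42 in the other 4. Trpv2 rose by 1.07 on the log2 scale (SE 0.21; adjusted p 9.5e-04 in edgeR), and by 0.84 without mdx/mTR replicate 5. Of the 50-base stretches in its longest coding transcript, 2.38% also occur in transcripts of other genes.

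Macrophage markers were higher in mdx/mTR, as were Trpv2 and Orai2. Of the 11 macrophage markers (among them Adgre1, Cd68 and Csf1r), 10 were called higher in mdx/mTR, 0 lower, and none was at 0. Marker counts here and below are calls at an adjusted p below 0.05 in edgeR. Of all genes tested, 25.0% were called higher and 23.4% lower. Their summed level was 110 to 187 CPM in WT against 302 to 797 CPM in mdx/mTR. The 2 mdx/mTR mice with the highest sums, replicate 5 (797 CPM) and replicate 2 (552 CPM), were also the 2 highest for Trpv2. The match was not particular to macrophage markers, since the same 2 mice had the highest mdx/mTR sums of fibroblast (3311 and 2810 CPM), satellite cell (122 and 105 CPM), mural cell (439 and 416 CPM) and endothelial markers (579 and 624 CPM), and the lowest sums of muscle fibre markers (117839 and 126265 CPM). For Orai2, replicate 5 was the highest (4.24 CPM) and replicate 1, with the lowest macrophage sum (302 CPM), the lowest. The order between them differed. Replicate 4, next for Orai2 at 4.15 CPM, had a macrophage sum of 443 CPM, below replicates 2 (552 CPM) and 3 (514 CPM). The part of any of these cells in the rise of either gene was not tested.

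**Figure D4:**
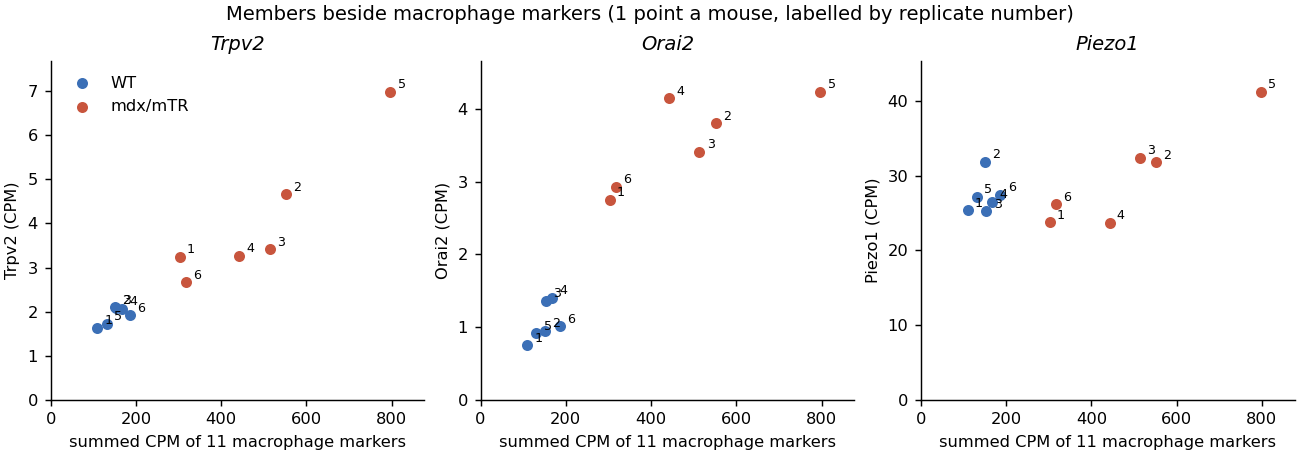
CPM of Trpv2, Orai2 and Piezo1 (y axes, from 0) against the summed CPM of 11 macrophage markers (x axis), 1 point a mouse, labelled by replicate number. The groups do not overlap on the x axis, and mdx/mTR replicate 5 is at the upper right of each panel.

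Markers of connective tissue moved in the same direction. The sum over 7 markers of fibroblasts and fibro-adipogenic progenitors was 823 to 1422 CPM in WT against 1758 to 3311 CPM in mdx/mTR (5 of 7 higher, 0 lower). Satellite cell and myoblast markers summed to 61.2 to 75.2 and 71.4 to 122 CPM (4 of 7 higher, 1 lower), and T and NK cell markers to 0.306 to 0.893 and 2.05 to 4.96 CPM (1 gene tested, higher). Neutrophil markers summed to 0.639 to 2.05 CPM in WT against 1.87 to 19.4 CPM in mdx/mTR, the highest again in replicate 5. Muscle fibre markers were called lower for 3 of 8 and higher for 0, and 5 were not called.

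Endothelial markers summed to 597 to 775 CPM in WT against 478 to 624 CPM in mdx/mTR, with 6 of 9 lower and 1 higher. Mural cell markers were 372 to 516 and 366 to 439 CPM (3 of 6 lower, 1 higher), and Schwann cell markers 41.8 to 53.3 and 22.3 to 34.6 CPM (4 of 5 lower). No call was made among the tested markers of B cells (0.278 to 1.98 and 0.628 to 1.53 CPM), adipocytes (6.97 to 10.9 and 4.62 to 15.4 CPM), erythroid cells (11.5 to 41.6 and 9.82 to 22.3 CPM) or keratinocytes (1.23 to 2.37 and 1.47 to 2.12 CPM). The globin genes Hba-a1 and Hbb-bs were listed at 0 in all libraries.

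Piezo1 (chr8:122481698-122551329), the tension-gated channel, ran from 25.2 to 31.9 CPM in WT (median 26.8) and from 23.6 to 41.2 CPM in mdx/mTR (median 28.9). The mdx/mTR mice lay on both sides of the WT range, 2 below it and 2 above it. Replicate 5 was the highest at 41.2 CPM, followed by replicate 3 at 32.4 and replicate 2 at 31.8 CPM, the same 3 mice that had the highest sums of macrophage, endothelial, fibroblast, satellite cell and keratinocyte markers in mdx/mTR. WT replicate 2, the highest WT mouse for Piezo1 at 31.9 CPM, had the highest WT endothelial sum (775 CPM). That match was not particular to endothelial markers. The same mouse had the highest WT sums of fibroblast (1422 CPM), mural cell (516 CPM), Schwann cell (53.3 CPM), T and NK cell, B cell, erythroid and keratinocyte markers. Its sum of muscle fibre markers (157145 CPM) was the lowest of WT. This mouse did not lead for macrophage (150 CPM), satellite cell (61.8 CPM), neutrophil or adipocyte markers. The log2 fold change was 0.13 ± 0.12 (SE; adjusted p 0.410 in edgeR), and 0.0111 without mdx/mTR replicate 5. Exons of Ctu2, on the opposite strand, cover 24.6% of the exonic bases of Piezo1, and the strand handling of the counts is not given in the sources used here, so the level of Piezo1 is uncertain. Ctu2 itself had 7.81 ± 0.508 CPM in WT against 7.93 ± 0.946 CPM in mdx/mTR (log2 change 0.02, adjusted p 0.848 in edgeR).

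Trpc1 (chr9:95705082-95750375), proposed as a partner of STIM1 and as a channel of the costamere, was the scarcest of the 9 genes. It had 0.583 to 0.865 CPM in WT (median 0.799) and 0.575 to 1.203 CPM in mdx/mTR (median 0.895). Only 21 to 58 counts per library lie behind these values, and 5 of the 6 mdx/mTR mice were above the highest WT mouse while replicate 1 was below the lowest. The log2 fold change was 0.25 ± 0.18 (SE; adjusted p 0.288 in edgeR), about the size of that of Orai1, whose SE was 0.06.

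Trpv4 (chr5:114622152-114658421), a channel opened by swelling and shear, had 2.36 to 3.80 CPM in WT (median 3.35) and 2.65 to 3.13 CPM in mdx/mTR (median 2.81). All mdx/mTR mice lay inside the WT range, which was the wider one. Its log2 fold change was -0.15 ± 0.12 (SE; adjusted p 0.292 in edgeR), and 0.000556 with library totals alone. Trpv4 and Stim1 had nearly the same estimate, with an SE of 0.05 for Stim1.

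The 9 genes differed far more from each other than between the groups. In WT the level per kilobase of exon was 33.5 ± 0.769 CPM per kb for Stim1, 14.6 ± 1.09 for Orai1, 9.61 ± 0.483 for Stim2 and 6.96 ± 0.349 for Orai3 (SD, n = 6). Piezo1 followed at 2.74 ± 0.245, Trpv4 at 0.778 ± 0.128, Trpv2 at 0.428 ± 0.0441, Orai2 at 0.175 ± 0.0430 and Trpc1 at 0.0949 ± 0.0142 CPM per kb. None of the 8 neighbouring pairs in this order overlapped in WT. In mdx/mTR the order was that of WT except that Trpv2 (0.901 ± 0.354) stood above Trpv4 (0.700 ± 0.0452), and Orai2 reached 0.584 ± 0.102 CPM per kb. There the ranges overlapped for Stim2 and Orai3, for Trpv2 and Trpv4, and for Trpv4 and Orai2. Dividing by the longest coding transcript in place of all exons kept the WT order and put Orai2 (0.890) just above Trpv4 (0.884) in mdx/mTR. The levels themselves moved, for Stim1 in WT from 33.5 to 79.7 CPM per kb.

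In the authors' deposited table the same 6 genes have an adjusted p below 0.05. Its log2 fold changes are 1.63 for Orai2, 0.98 for Trpv2, 0.24 for Orai1, -0.15 for Stim1 and Orai3 and -0.44 for Stim2. The adjusted p in the authors' deposited table is 0.0183 for Stim1 and 0.0264 for Orai3.

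Other genes of the pathway were read from the same edgeR fit, in 6 lists of 86 genes in all, of which 68 were tested. Of these 68, 20 were higher and 18 lower, so 55.9% were called where 48.3% of all genes tested were, and their median log2 fold change was -0.03 against 0.01. With library totals alone, which raised the median of all genes by 0.16, the split was 27 higher and 9 lower.

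Among 13 tested regulators of store-operated entry, 3 were higher and 4 lower (median -0.08). Homer1 and Homer2, which encode scaffolds that link TRPC channels to calcium release channels, had the smallest p-values. Homer2 fell from 49.8 ± 9.57 to 15.2 ± 4.42 CPM (log2 change -1.72, SE 0.17; adjusted p 4.4e-06 in edgeR) and Homer1 from 119 ± 8.23 to 66.6 ± 10.6 CPM (-0.84 ± 0.09, adjusted p 1.3e-05). Neither gene's groups overlapped. The third Homer gene, the scarcer Homer3, moved the other way, from 2.79 ± 0.495 to 4.28 ± 0.751 CPM (log2 change 0.62, SE 0.14; adjusted p 0.00311 in edgeR), and was named after its value was seen. The ubiquitin-binding protein gene Ubqln1 fell slightly (-0.19, edgeR adjusted p 0.00103), but its value was -0.03 and no longer called with library totals alone.

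Of 25 other TRP channel genes, 12 were tested, with 4 higher and 3 lower (median 0.05). Mcoln2, a lysosomal channel of immune cells, had 0.0558 to 0.186 CPM in WT and 0.574 to 2.91 CPM in mdx/mTR. Its log2 change was 3.54 (SE 0.48, adjusted p 5.6e-05 in edgeR). The lowest estimate in the 12 fits without 1 mouse, 3.10, was that without mdx/mTR replicate 6. That mouse had 317 CPM of the macrophage markers, where the mdx/mTR mice ran from 302 to 797 CPM. The part of macrophages in the rise of Mcoln2 was not tested. Trpm7, a channel fused to a kinase that carries magnesium and calcium, fell (-0.30, edgeR adjusted p 8.9e-04), a call lost at -0.15 with library totals alone. Pkd2, encoding polycystin 2, rose (0.35, adjusted p 0.00172). The 13 TRP genes that did not pass the filter had at most 16 counts in any library, among them Trpc6, Trpa1 and Trpv6.

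The 10 partners and scaffolds of TRP channels divided evenly, with 3 higher and 3 lower (median -0.02). Fkbp4, an immunophilin reported to bind TRPC1, fell from 170 ± 6.82 to 123 ± 4.90 CPM (log2 change -0.47, SE 0.04; adjusted p 2.8e-06 in edgeR). The tyrosine kinase gene Src rose (0.84, adjusted p 1.3e-04), as did Cav3, the caveolin of muscle (0.31, adjusted p 3.1e-04).

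Among 9 tested genes of other mechanosensitive channels and Piezo partners, 3 were higher and 2 lower (median 0.15). Mdfi, an inhibitor of MyoD-family factors whose family has been reported to bind Piezo channels, rose from 0.335 to 0.876 CPM in WT to 10.3 to 20.1 CPM in mdx/mTR (log2 change 4.48, SE 0.23; adjusted p 2.8e-08 in edgeR). Tmem63a (-0.32, adjusted p 6.1e-04) and Tmem63b (-0.17, adjusted p 0.0124), both channels of the OSCA/TMEM63 family, fell, and the call of Tmem63b was lost at -0.02 with library totals alone.

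Upstream of store release, 5 of 11 genes of phospholipase C and of the IP3 receptors were higher and 3 lower (median 0.01). Plcd1 (0.60, edgeR adjusted p 3.4e-05) and Plcb4 (0.45, adjusted p 5.1e-05), which make IP3, rose. Itpr1, an IP3 receptor that releases stored calcium, fell (-0.43, adjusted p 3.8e-04).

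Downstream, calcineurin and its NFAT transcription factors are activated by calcium that enters through ORAI1, and 2 of 13 of their genes were higher and 3 lower (median -0.06). Rcan2, a calcineurin regulator, fell from 112 ± 4.90 to 60.1 ± 7.66 CPM (log2 change -0.89, SE 0.08; adjusted p 1.4e-06 in edgeR). Nfatc3 fell (-0.32, adjusted p 1.3e-04) while Nfatc2 rose (0.57, adjusted p 4.4e-04). Rcan1, a known target of NFAT, had 91.8 ± 14.5 CPM in WT against 93.4 ± 20.5 CPM in mdx/mTR (log2 change 0.03, edgeR adjusted p 0.892) and was chosen after its value was seen.

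**Figure D5:**
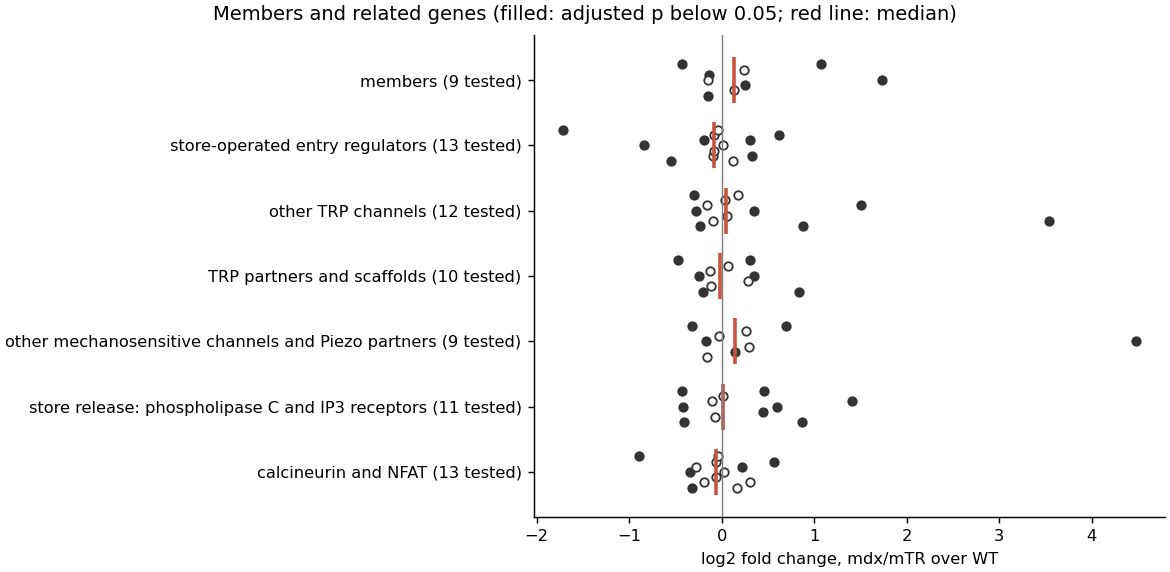
Log2 ratio of mdx/mTR to WT levels (x axis) for the 9 genes and for the tested genes of 6 related lists, 1 point a gene, filled for an adjusted p below 0.05, with the median of a list as a red line. The medians lie between -0.08 and 0.15, and the points farthest out are Mdfi (4.48) and Mcoln2 (3.54) to the right and Homer2 (-1.72) to the left.

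For each of the 9 genes, the genes with the most similar deviations from the group means over the 12 libraries were found by Pearson's r of log2 CPM among genes with a mean of at least 5 CPM. All points share the depth and composition of their libraries, and with so many genes a high r is to be found for any of them, so these are descriptions only. The closest to Trpv2 were Ppfia4 (r 0.978), S100a10 (0.970) and Lyn (0.968), and the closest to Piezo1 were Cers2 (0.970), Sec61a1 (0.962) and Edem1 (0.957). Those for Orai2 were Ajuba (0.918), Trf (0.876) and Dzip3 (0.863), for Orai1 Rala (0.855), Pafah2 (0.838) and Slc31a1 (0.826), and for Orai3 Akip1 (0.892), Spns2 (0.890) and Prune (0.880). Stim1 was closest to Serbp1 (0.957), Tpm1 (0.944) and Hrc (0.939), and Stim2 to Taf9b (0.966), Ctnnb1 (0.955) and Scn4a (0.930). Trpc1 was closest to Agtr1a (0.899), Tbc1d9b (0.876) and Cers4 (0.865), and Trpv4 to Shroom4 (0.918), Mxd4 (0.909) and Rnf169 (0.898). Within the 9 genes the highest r was that of Trpv2 and Piezo1 (0.803) and the lowest that of Stim1 and Piezo1 (-0.824).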

How the data were processed

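Messenger RNA counts of 12 libraries were analysed, 6 WT and 6 mdx/mTR, grouped by the labels. The authors deposited whole-number counts per gene symbol, and per the submitters' processing notes FastQC, STAR, DESeq2 and the mm10 build were used. The counter, annotation and strand handling are not given in the sources used here. The columns of the authors' deposited comparison table are a normalized mean signal over libraries, a log2 fold change and its SE, a test score, and p-values.

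Counts were tested with edgeR 4.0.16 in R 4.3.3 (filterByExpr, TMM scaling, glmQLFit and glmQLFTest, group as the only term), and p-values were adjusted by Benjamini-Hochberg over the 13937 genes tested, with a threshold of 0.05. The SE is the log2 fold change divided by the square root of F. CPM use TMM-scaled library sizes. Exonic lengths, positions and overlaps came from GENCODE M21 (GRCm38) and promoters from RefSeq, in which all 9 genes were found. The edgeR procedure was tested on simulated data.

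The 9 genes, the 6 lists, the 13 marker lists, the 4 ratios and the 8 promoter motifs were chosen with earlier results of these data known. Besides the 9 genes, the 3 genes of smallest p of each list, Dmd, Terc and the 3 genes most like each of the 9 (mean of at least 5 CPM) were named by rule; Ctu2 was named for its overlap with Piezo1. Alternatives were other filters, scalings, tests and thresholds, a replicate block and each mouse left out. No 2 libraries of a group were alike within counting error (chi-square per degree of freedom 8.87 to 116). A count of 0 allows up to 3 counts, or 0.0460 to 0.0837 CPM.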

Additional observations from a re-analysis of the deposited data

Results flagged for a closer look

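Single libraries that stood apart within a group of 6 were sought with Dixon's gap ratio, the distance to the nearest library over the whole spread, at its 95% critical value. It was passed in 4 of 64 sets of 6 values, and 3.2 would pass by chance. For Piezo1, WT replicate 2 had 31.9 CPM, while the remaining WT libraries had 25.2 to 27.4 CPM (gap ratio 0.676). That library was also the highest for Tmem63b, with 127 CPM where the rest had 112 to 117 CPM (gap ratio 0.645). Replicate 3 of mdx/mTR had 23.8 CPM of Homer2, where the rest had 11.5 to 15.3 CPM (gap ratio 0.693), and 20.1 CPM of Mdfi, where the rest had 10.3 to 13.8 CPM (gap ratio 0.651).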

How the results depend on the processing

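For 28 genes named from the fit, 614 values were computed under 22 alternatives, of which 565 kept their direction and side of the threshold, 46 lost a call and 3 changed sign. The 3 were Stim1 (0.00574), Orai3 (0.0160) and Trpv4 (0.000556) with library totals alone, which shifted the median of all genes by 0.16. Tested against an absolute log2 change of 0.5 in place of 0, 1368 genes passed, 2 of the 9 (Orai2 and Trpv2) and 6 of the genes of the pathway lists. At an adjusted p of 0.01, 23 of the 68 tested pathway genes passed, where 4621 of all 13937 genes tested did. Without 1 mouse, 6125 to 6816 genes, 4 to 6 of the 9 and 32 to 38 pathway genes passed. Library totals alone gave 5596 genes higher and 1560 lower in place of 3479 and 3257. DESeq2 and limma-voom each called 6 of the 9, and 4 were called (not Stim1 or Orai3) without the filter or with upper quartile scaling. The groups share replicate numbers, and deviations of same-numbered libraries had correlations from -0.155 to 0.354. Replicates 1 (0.354) and 2 (0.285) matched their own number best in both directions. Replicates 3 to 6 (-0.155 to -0.0283) did not. Every pair would have to exceed 0.1, so the numbers were not taken as pairs. With a replicate block 6420 genes, 4 of the 9 (not Stim1, adjusted p 0.0671, nor Orai3, adjusted p 0.0685) and 36 pathway genes passed. A sign-flip test on same-numbered differences gave all 4 ratios an exact adjusted p of 0.0313, the smallest it can give. Depth limits Trpc1 most, with 21 to 58 counts per library.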
